A study of Homo sapiens with 8 samples.

Results

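The 9 genes described here, MDM2, DDB2, XPC, RRM2B, SESN1, FDXR, TP53INP1, ZMAT3 and AEN, are direct transcriptional targets of p53, and were taken by their symbols from a table of 58735 genes. RNA came from LN229, a human cell line established from a glioblastoma. Cells of 4 samples were exposed for 48 h to a pair of drugs, called the combination here: the proteasome inhibitor bortezomib (7.5 nM) and the histone deacetylase inhibitor panobinostat (15 nM). The 4 control samples had DMSO, the solvent, although one label calls them untreated. Neither drug was given alone in these samples, so the effects of the pair cannot be divided between them. The comparison asks how transcripts of the p53 pathway differ after the combination.

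The transcription factor p53 is kept scarce by MDM2, a ubiquitin ligase that marks it for the proteasome, and MDM2 is itself a p53 target, which closes a negative feedback loop. When p53 accumulates after DNA damage or other stress, it binds a paired decamer in DNA near its targets and raises genes of cell cycle arrest, DNA repair, metabolism and cell death. LN229 is described in cell line collections as carrying a mutated p53 gene and as lacking the CDKN2A locus, which encodes the MDM2 inhibitor ARF. In these libraries CDKN2A had 0 reads in all 8 samples. The level of the p53 transcript itself is not analysed here, and no p53 protein was measured.

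Levels are given as FPKM, the authors' read number scaled to gene length and library size. Libraries held 15189251 to 17324292 reads assigned to genes. Reads of the mitochondrial genome made up 11.7% to 15.1% of the total after the combination and 4.31% to 6.69% in DMSO. Their part in the results below was not tested. Scaling by nuclear reads alone, an alternative chosen after seeing the data, left the same number of lower genes among the 9. That scaling shifts all genes of a sample alike and does not test the part of mitochondrial reads. The 7 mesenchymal and glial markers summed to 427 to 452 FPKM after the combination and 965 to 984 FPKM in DMSO. VIM, NES and S100B were lower, FN1 was higher and CD44 was not called, while the astrocyte markers GFAP and AQP4 stayed under 1 FPKM in every sample. S100B had the largest fall of these, with 17.8 ± 0.823 FPKM after the combination and 257 ± 6.59 FPKM in DMSO. Brain tissue is named in the extraction text, so markers of other brain cells were examined. All 5 microglia and leukocyte markers were under 1 FPKM in every sample, with AIF1 at 0 throughout. Neuron markers summed to 22.7 to 24.7 FPKM after the combination and 14.5 to 15.4 FPKM in DMSO, with SLC17A7 and SNAP25 higher and SYT1 and GAD1 lower. The oligodendrocyte markers MBP, MOG and MOBP were under 1 FPKM in every sample. Endothelial markers summed to 1.56 to 1.99 FPKM after the combination and 7.91 to 8.62 FPKM in DMSO. FLT1 alone gave the lower sum, with 0.668 ± 0.0239 FPKM after the combination and 7.85 ± 0.400 FPKM in DMSO, and the other 4 stayed under 1 FPKM. The part of such lineage genes in the results was not tested. In bulk RNA, fewer cells that express a gene and less of its RNA per cell cannot be told apart.

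The promoters of DDB2, AEN, FDXR and SESN1 are shown because each holds, within 50 bases of an annotated transcript start, a perfect match to the p53 consensus decamer. The lines give 70 bases before to 30 bases after the start of a RefSeq transcript (GRCh38.p14), 5′ to 3′ on the strand of the gene, with the decamer in capitals.
DDB2, chr11:47214904-47215003, plus strand: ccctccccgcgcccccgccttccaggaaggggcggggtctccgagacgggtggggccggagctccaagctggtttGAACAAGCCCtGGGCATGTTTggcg
AEN, chr15:88621270-88621369, plus strand: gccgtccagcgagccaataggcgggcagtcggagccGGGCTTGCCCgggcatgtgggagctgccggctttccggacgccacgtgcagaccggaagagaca
FDXR, chr17:74872965-74873064, minus strand: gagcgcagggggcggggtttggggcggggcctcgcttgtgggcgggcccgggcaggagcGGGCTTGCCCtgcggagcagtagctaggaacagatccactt
SESN1, chr6:109008959-109009058, minus strand: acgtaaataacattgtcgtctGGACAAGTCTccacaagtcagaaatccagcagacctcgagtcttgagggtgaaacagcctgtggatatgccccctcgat
In DDB2 a pair of decamers lies just inside the transcript, at bases 6 to 15 and 17 to 26 from its start, separated by a single base. In AEN, FDXR and SESN1 a lone decamer ends 25, 2 and 40 bases before the start. The decamer in AEN and in FDXR has the same letters. For DDB2 and SESN1 the start shown is an inner one, and the window at the outermost start of each held no decamer.

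Windows of 300 bases (250 before to 50 after each start) were listed for 7 of the 9 genes, 15 windows in all, since several genes have more than one start. A decamer was present in 4 of these 15 windows, against 6.63% of all 35116 windows. Among the further p53 targets described below, it was present in 4 of 45 windows. Pairs of decamers at most 13 bases apart were found in 10 windows of the whole table, 0.0285% of them, and the DDB2 window was among these 10. The decamer reads the same pattern on both strands, so a single search covers both. No match was found in the windows of MDM2, XPC and ZMAT3, which says only that these letters are absent there. RRM2B and TP53INP1 were not searched.

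After the combination the transcripts of 7 of these p53 targets were lower and TP53INP1 was slightly higher. DDB2 fell furthest, to 22.5% of its level in DMSO. RRM2B, MDM2 and FDXR fell to 49.3%, 53.1% and 54.0%, ZMAT3 and AEN to 64.7% and 67.9%, and XPC to 79.0%. The ninth gene, SESN1, was too low to enter the test across all genes.

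Differences were tested with limma on log2(FPKM + 1). Genes averaging 1 FPKM or more over the 8 samples, 13296 in number, entered the fit, with Benjamini-Hochberg adjustment over all of them, and a gene was called at an adjusted p under 0.05. Log2 fold changes are on that scale, which understates changes of low genes. Of the 9 genes 8 passed the filter, and all 8 averaged over 1 FPKM in both groups. The calls, 7 lower and 1 higher, stand against a background in which 77.8% of all tested genes were called, 41.0% as lower and 36.9% as higher. In the 7 lower genes every combination sample lay below every DMSO sample, as in 38.5% of tested genes. The median log2 fold change of the 8 was -0.63, beside -0.03 for all genes tested. Since the 9 genes were chosen with earlier results of these data known, these comparisons with all tested genes are a description. Only DDB2 reached a log2 fold change of -1 or less, which 11.1% of tested genes did, and none reached 1 or more, which 8.84% did. The samples of a group are not stated to come from separate cultures. The p-values therefore weigh each difference only against the scatter among these samples, and that scatter may be technical. Errors are SD over 4 samples for levels and SE for fold changes.

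**Figure D1:**
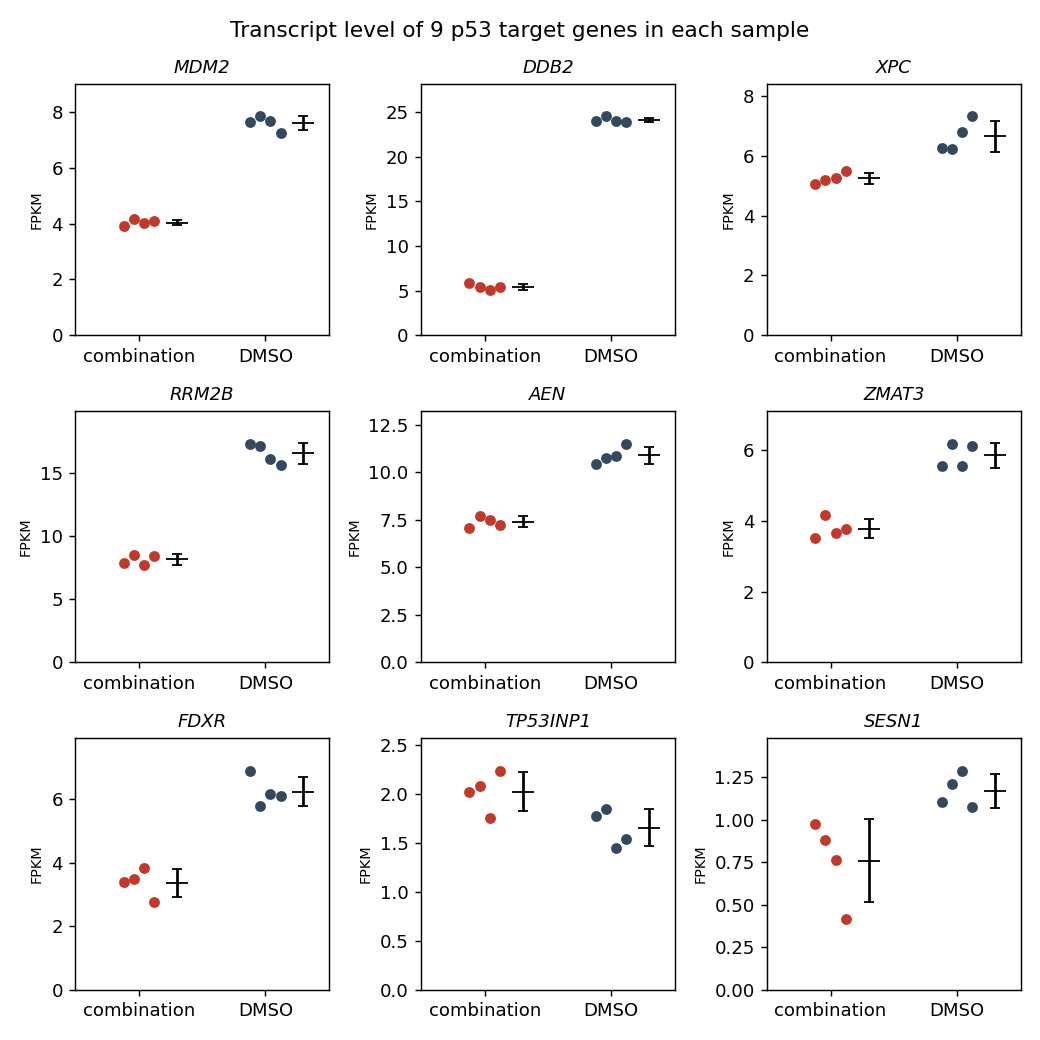
FPKM (y axis, from 0) of each gene in 4 combination samples (red) and 4 DMSO samples (dark blue), with the mean and SD as a bar beside the points. The groups are apart in every panel except TP53INP1, where they overlap.

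MDM2, the ubiquitin ligase of p53 on chromosome 12 (68808176 to 68850686, plus strand), had 3.91, 4.15, 4.02 and 4.08 FPKM in the combination samples, against 7.64, 7.84, 7.69 and 7.24 FPKM in the DMSO samples. The groups were far apart compared with their own spread. Its mean was 4.04 ± 0.101 FPKM after the combination and 7.60 ± 0.258 FPKM in DMSO, a log2 fold change of -0.77 ± 0.0373 (limma, adjusted p = 5.85e-08). Between 792 and 943 reads lay behind each combination value and between 1518 and 1765 behind each DMSO value. The length used for MDM2 is that of its merged exons, 13284 bases, the longest of the 9, so its level per base averages over long stretches that not every transcript holds.

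The damage sensors of nucleotide excision repair, which removes ultraviolet lesions, fell by unequal amounts. DDB2, the lesion-binding subunit of the UV-DDB complex on chromosome 11 (47214465 to 47239240, plus strand), had 5.84, 5.37, 5.10 and 5.43 FPKM in the combination samples, against 24.1, 24.5, 24.0 and 23.9 FPKM in DMSO. It was the most abundant of the 9 in DMSO, and the DMSO samples differed by less than 1 FPKM. The log2 fold change was -1.97 ± 0.0386 (limma, adjusted p = 1.65e-10), at percentile 3.04 of all tested genes counted from the most negative. XPC, which detects the distorted helix and starts repair across the genome, had 5.05, 5.18, 5.26 and 5.50 FPKM in the combination samples, against 6.24, 6.22, 6.80 and 7.31 FPKM in DMSO. Its groups did not overlap either, but the gap between the nearest samples was smaller than the range of the DMSO samples. The log2 fold change of XPC was -0.29 ± 0.0531 (limma, adjusted p = 0.000733). XPC lies on chromosome 3 (14145147 to 14178783, minus strand), and 30.4% of its exon length is under exons of genes on the opposite strand, among them LSM3. The sources used here do not say whether counting used strand, so reads of XPC and LSM3 may be mixed. LSM3 had 4.26 ± 0.178 FPKM after the combination and 14.5 ± 0.453 FPKM in DMSO, and its part in the lower value of XPC was not tested.

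RRM2B, a ribonucleotide reductase subunit that supplies deoxynucleotides for repair outside S phase, lies on chromosome 8. It had 7.89, 8.53, 7.68 and 8.45 FPKM in the combination samples, against 17.3, 17.1, 16.1 and 15.6 FPKM in DMSO. Every combination sample was lower than any DMSO sample by more than 7 FPKM. The log2 fold change was -0.94 ± 0.0465 (limma, adjusted p = 6.82e-08), and RRM2B had the highest mean of the 9 after the combination, as DDB2 did in DMSO.

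AEN, a nuclease that degrades DNA and RNA during apoptosis, lies on chromosome 15 (88621296 to 88632282, plus strand). It had 7.08, 7.73, 7.52 and 7.24 FPKM in the combination samples, against 10.4, 10.8, 10.9 and 11.5 FPKM in DMSO. Its samples were tightly grouped on both sides, and the log2 fold change was -0.50 ± 0.0408 (limma, adjusted p = 2.35e-06). ZMAT3, a zinc finger protein that binds RNA and acts on splicing, lies on the other arm of chromosome 3 from XPC (179017223 to 179072279, minus strand). It had 3.52, 4.16, 3.67 and 3.77 FPKM in the combination samples, against 5.56, 6.18, 5.54 and 6.11 FPKM in DMSO. The groups stayed apart, with a log2 fold change of -0.52 ± 0.0550 (limma, adjusted p = 1.65e-05), close to that of AEN.

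FDXR, the mitochondrial reductase that passes electrons from NADPH to ferredoxins, lies on chromosome 17 (74862497 to 74873031, minus strand). It had 3.39, 3.48, 3.85 and 2.77 FPKM in the combination samples, against 6.90, 5.80, 6.16 and 6.12 FPKM in DMSO. The combination samples varied more than for most of the other genes (SD 13.2% of the mean) but remained below all DMSO samples. The log2 fold change was -0.73 ± 0.0794 (limma, adjusted p = 1.94e-05).

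SESN1, a sestrin that restrains the growth kinase mTORC1, was the lowest of the 9 and lies on chromosome 6 (108986437 to 109094819, minus strand). It had 0.974, 0.879, 0.765 and 0.414 FPKM in the combination samples, against 1.10, 1.21, 1.29 and 1.08 FPKM in DMSO, from 34 to 77 reads and 87 to 110 reads per sample. No combination sample reached the lowest DMSO sample, but combination replicate 4 was well below the other three. The mean over all 8 samples, 0.963 FPKM, missed the filter. An exact permutation test on this gene alone gave a two-sided p of 0.0286, and no smaller p is possible with 4 against 4 samples. Tested with all genes and no filter, SESN1 had a log2 fold change of -0.31 ± 0.114 and was not called (limma, adjusted p = 0.0652), in a fit where 16.5% of 38736 genes were lower. Without combination replicate 4 it passed the filter and was lower (log2 fold change -0.21, limma, adjusted p = 0.0494).

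TP53INP1, a nuclear protein that helps activate p53 and also takes part in autophagy, lies on chromosome 8 and had 2.01, 2.08, 1.75 and 2.23 FPKM in the combination samples, against 1.77, 1.84, 1.45 and 1.54 FPKM in DMSO. Here the groups overlapped, since combination replicate 3 lay below DMSO replicates 1 and 2. The log2 fold change of 0.19 ± 0.0758 only just passed (limma, adjusted p = 0.0451). The call was lost without combination replicate 1, 2 or 4, without DMSO replicate 3 or 4, without the filter, with library totals and with voom (adjusted p of 0.0121 to 0.137 over all alternatives), so its rise is uncertain, and the sign held in every one of them.

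**Figure D2:**
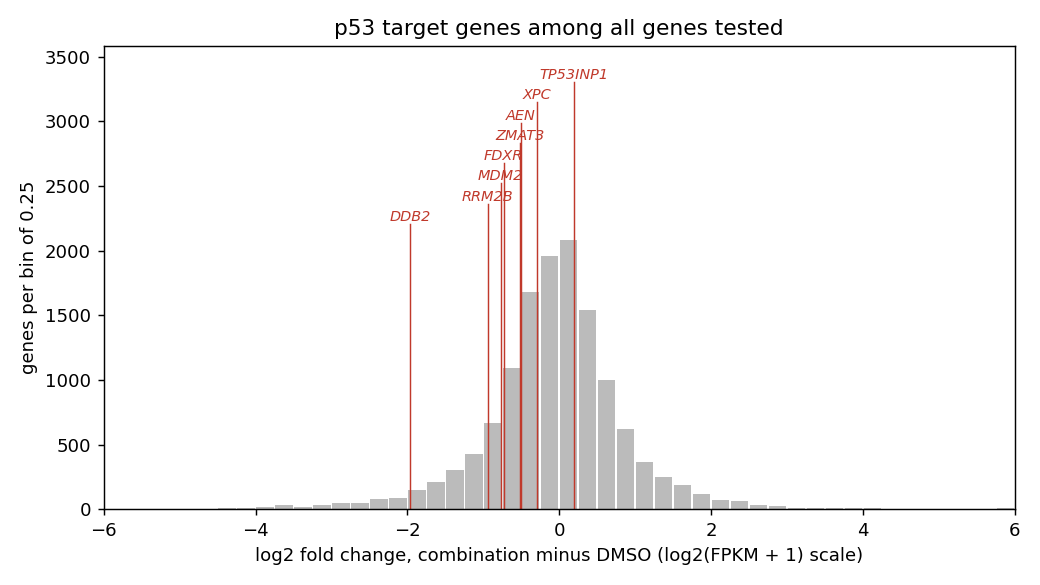
Number of genes (y axis) per bin of log2 fold change, combination minus DMSO (x axis), for all 13296 tested genes, with the tested p53 targets as red lines. DDB2 stands at -1.97, the next 6 lie between -0.94 and -0.29, and TP53INP1 alone is right of 0.

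The order of the 9 genes by level differed between the groups. After the combination the order was RRM2B, AEN, DDB2, XPC, MDM2, ZMAT3, FDXR, TP53INP1 and SESN1, from 8.14 to 0.758 FPKM. Here RRM2B and AEN, DDB2 and XPC, MDM2 and ZMAT3, and ZMAT3 and FDXR had overlapping samples. In DMSO the order was DDB2, RRM2B, AEN, MDM2, XPC, FDXR, ZMAT3, TP53INP1 and SESN1, from 24.1 to 1.17 FPKM. The neighbours from MDM2 to ZMAT3 in that order had overlapping samples, and all other neighbours were apart. The levels of the 9 genes summed to 40.2 ± 0.925 FPKM after the combination and 80.7 ± 0.675 FPKM in DMSO, and DDB2 made up the largest part of that difference.

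Partners and relatives of these proteins moved in both directions. Of 22 such genes 18 were tested, and 8 were higher (44.4%) and 7 lower (38.9%), shares near the 36.9% and 41.0% of all tested genes. In the ubiquitin ligase that DDB2 belongs to, DDB1 and CUL4A were not called, while CUL4B was higher and RBX1 lower. The adaptor DDB1 had 17.00 ± 0.650 FPKM after the combination and 17.6 ± 0.302 FPKM in DMSO (log2 interval -0.12 to 0.03, limma, adjusted p = 0.249). The scaffold CUL4A stood at 9.69 ± 0.362 FPKM after the combination and 9.63 ± 0.340 FPKM in DMSO (log2 interval -0.08 to 0.09, limma, adjusted p = 0.861). DDB1 gained a lower call with library totals and voom, and CUL4A a higher one with upper-quartile factors and quantile normalization. The alternative scaffold CUL4B rose to 30.02 ± 1.07 FPKM after the combination, against 14.0 ± 1.17 FPKM in DMSO, while the RING subunit RBX1 fell to 14.9 ± 0.670 FPKM, against 21.9 ± 1.60 FPKM.

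Of the proteins that bind XPC, centrin 2 (CETN2) rose to 28.3 ± 2.39 FPKM after the combination, against 13.2 ± 0.385 FPKM in DMSO. RAD23B, which stabilises XPC, was called higher by a small amount (log2 fold change 0.10), and the call was lost in 8 alternatives, among them library totals and voom. XPA, which verifies the lesion after XPC, rose to 10.7 ± 0.263 FPKM, against 7.98 ± 0.959 FPKM in DMSO.

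RRM2B fell by a smaller fold than both other subunits of ribonucleotide reductase. The large subunit RRM1 fell to 7.34 ± 0.400 FPKM after the combination, against 30.1 ± 1.28 FPKM in DMSO. RRM2, the small subunit of S phase, fell to 1.90 ± 0.201 FPKM, against 33.7 ± 1.67 FPKM in DMSO, with 20.2% of its exon length under another gene on the same strand. Per length, RRM2B therefore stood at 4.74, 3.96, 4.11 and 4.42 times the level of RRM2 in the combination samples, against 0.526, 0.473, 0.490 and 0.475 times in DMSO. RRM2B to RRM1 averaged 1.11 ± 0.0538 after the combination and 0.550 ± 0.0101 in DMSO. The more abundant small-subunit transcript was RRM2B in all 4 combination samples and RRM2 in all 4 DMSO samples.

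Both other sestrins were lower. SESN2 had 5.07 ± 0.518 FPKM after the combination and 7.001 ± 0.798 FPKM in DMSO, and SESN3 had 1.08 ± 0.144 FPKM after the combination and 2.47 ± 0.246 FPKM in DMSO. FDX1, the ferredoxin that receives electrons from FDXR, went the other way from FDXR, with 3.49 ± 0.374 FPKM after the combination and 2.67 ± 0.239 FPKM in DMSO (limma, adjusted p = 0.00523). Among exonucleases related to AEN, ISG20, an interferon-induced gene, fell to 0.574 ± 0.128 FPKM, against 2.47 ± 0.581 FPKM in DMSO, and passed the filter only through its DMSO level. ISG20L2, which acts in ribosome maturation, was called lower (log2 fold change -0.16), a call lost in 7 alternatives, among them upper-quartile factors and quantile normalization.

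TP53INP2, the relative of TP53INP1 that works in autophagy, rose to 8.63 ± 0.726 FPKM after the combination, against 5.60 ± 0.652 FPKM in DMSO (log2 fold change 0.55 ± 0.0802, limma, adjusted p = 0.000161). Of the zinc finger genes named like ZMAT3, ZMAT5 rose to 4.61 ± 0.375 FPKM, against 3.38 ± 0.280 FPKM in DMSO. ZMAT2 had 54.7 ± 5.37 FPKM after the combination and 49.0 ± 3.50 FPKM in DMSO and was not called (limma, adjusted p = 0.0870). It gained a higher call in 4 alternatives.

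**Figure D3:**
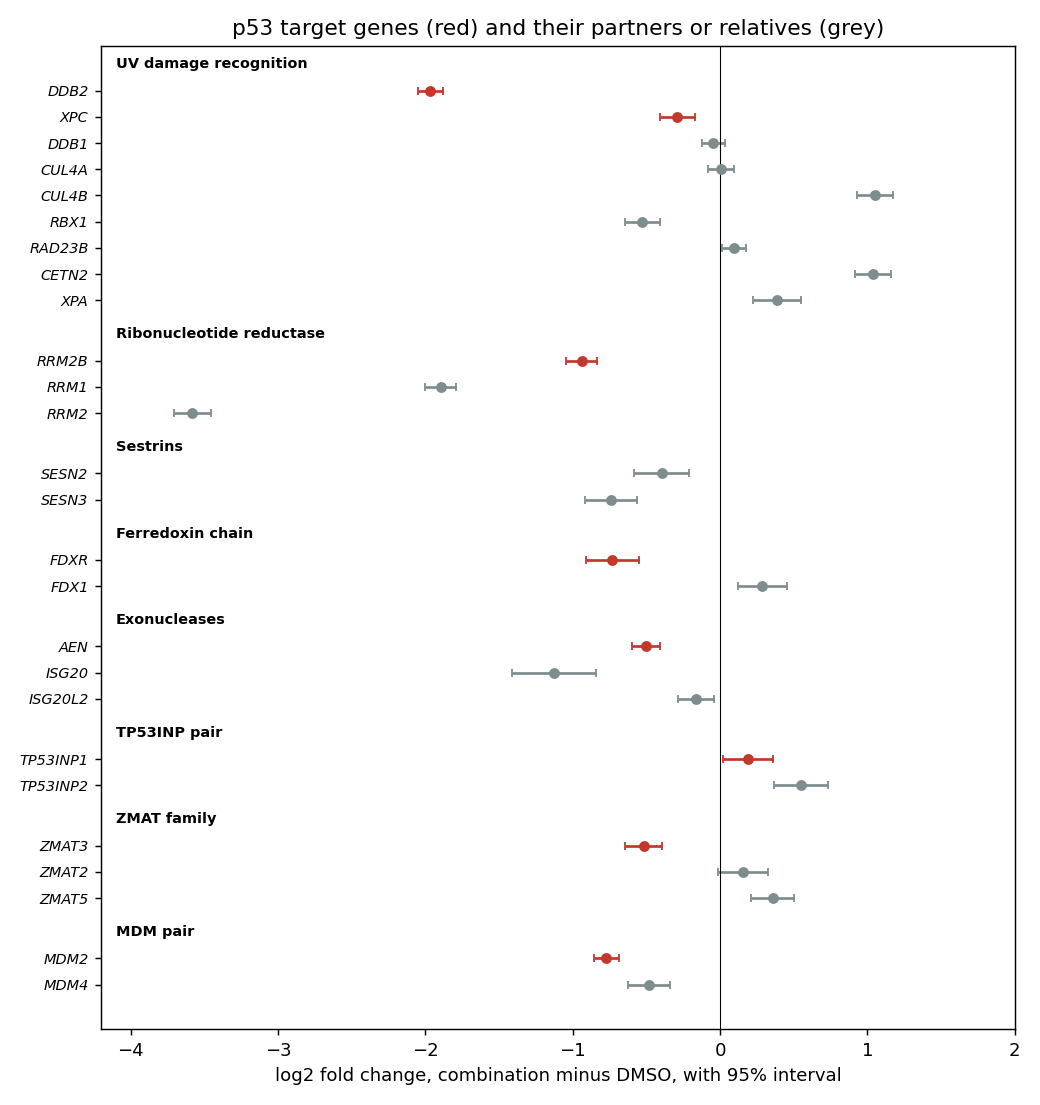
Log2 fold change, combination minus DMSO, with 95% interval (x axis) for the tested p53 targets in red and for most of the tested genes that work with them or belong to the same family in grey. DDB2 is left of every partner of the repair group, and RRM2B is right of RRM1 and RRM2.

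Ratios within a sample do not depend on the scaling of a library, and 8 were computed, chosen after the levels had been seen. In 7 of them the groups did not overlap. Because of that choice they are given as a description, with no test. The ratio of DDB2 to XPC averaged 1.04 ± 0.0849 after the combination and 3.65 ± 0.307 in DMSO, and that of DDB2 to its partner DDB1 averaged 0.321 ± 0.0297 after the combination and 1.37 ± 0.0357 in DMSO. MDM2 to MDM4, its relative that also binds p53, averaged 0.839 ± 0.0666 after the combination and 1.07 ± 0.0511 in DMSO. MDM4 itself was lower, with 4.84 ± 0.371 FPKM after the combination and 7.15 ± 0.537 FPKM in DMSO. FDXR to FDX1 averaged 0.986 ± 0.230 after the combination and 2.36 ± 0.358 in DMSO. SESN2 to SESN3 averaged 4.78 ± 0.825 after the combination and 2.88 ± 0.637 in DMSO, with overlapping samples.

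**Figure D4:**
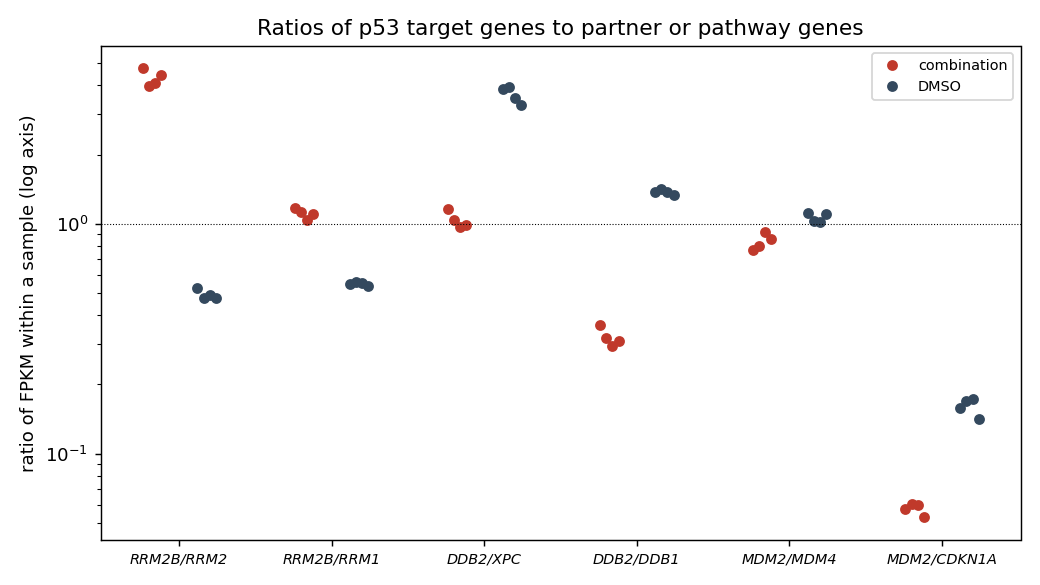
Ratio of FPKM between a pair of genes within each sample (y axis, log scale) for 6 of the 8 ratios, with 4 combination samples in red and 4 DMSO samples in dark blue. RRM2B to RRM2 lies near 4 after the combination and near 0.5 in DMSO, and the other 5 are apart as well.

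Other p53 targets were split rather than lower together. Both these targets and the genes described above were listed with earlier results of these data known. Whether the contrast between the lists comes from that choice was not tested. Of 45 further targets 36 were tested, and 14 were higher (38.9%) and 17 lower (47.2%). Their median change was -0.07 on the log2 scale. These shares lie near those of all tested genes. All 7 genes of arrest were tested, and 4 were higher (57.1%) and 2 lower (28.6%), beside 36.9% and 41.0% of all tested genes. The stratifin gene SFN had 2.28 ± 0.437 FPKM after the combination and 0.387 ± 0.133 FPKM in DMSO, and passed the filter only through the combination. The stress kinase PLK3 rose to 11.4 ± 1.06 FPKM, against 4.74 ± 0.396 FPKM in DMSO. GADD45A, which is induced by DNA damage, rose to 91.8 ± 5.70 FPKM, against 51.3 ± 2.45 FPKM. E2F7, a repressor of cell cycle genes, fell to 3.71 ± 0.304 FPKM, against 7.58 ± 0.269 FPKM, and the kinase gene PLK2 to 55.3 ± 4.04 FPKM, against 76.4 ± 1.83 FPKM.

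The classical arrest gene CDKN1A, which encodes p21, was higher while MDM2 was lower, with 70.4 ± 4.66 FPKM after the combination and 47.6 ± 2.92 FPKM in DMSO. The ratio of MDM2 to CDKN1A was 0.0575 ± 0.00342 after the combination and 0.160 ± 0.0144 in DMSO, without overlap. CDKN1A was named after its value had been seen.

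Of 15 genes of cell death and survival 13 were tested, 4 higher (30.8%) and 8 lower (61.5%), beside 36.9% and 41.0% of all tested genes. PERP, a membrane protein of desmosomes, rose to 44.3 ± 1.71 FPKM after the combination, against 25.3 ± 0.849 FPKM in DMSO, and the BH3-only genes BBC3 (log2 fold change 0.80 ± 0.104) and PMAIP1 (0.56 ± 0.0581) rose as well. TP53I3, a quinone oxidoreductase, fell to 1.77 ± 0.362 FPKM, against 5.82 ± 0.459 FPKM in DMSO. PIDD1, which assembles the platform that activates a caspase, fell to 3.06 ± 0.256 FPKM, against 8.33 ± 0.634 FPKM, and the death receptor FAS to 1.13 ± 0.235 FPKM, against 3.21 ± 0.212 FPKM.

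Of 10 targets in metabolism, redox and autophagy only 5 passed the filter. Of these 3 were higher (60%) and 1 lower (20%, SESN2), beside 36.9% and 41.0% of all tested genes. DRAM1, a lysosomal autophagy protein, rose to 5.09 ± 0.255 FPKM after the combination, against 2.77 ± 0.232 FPKM in DMSO. The iron reductase STEAP3 rose to 9.98 ± 0.419 FPKM, against 5.80 ± 0.343 FPKM, and LPIN1, an enzyme of lipid synthesis, to 5.67 ± 0.284 FPKM, against 4.21 ± 0.152 FPKM.

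The 13 remaining targets included 11 tested, 3 higher (27.3%) and 6 lower (54.5%), beside 36.9% and 41.0% of all tested genes. IER5, an early response gene, rose to 84.9 ± 7.53 FPKM after the combination, against 34.4 ± 4.92 FPKM in DMSO, and GDF15, a stress cytokine, to 61.5 ± 5.01 FPKM, against 35.8 ± 4.54 FPKM. RPS27L, a ribosomal protein relative, rose by a log2 fold change of 0.24. TRIM22, which interferon also induces, fell to 0.247 ± 0.0826 FPKM, against 13.7 ± 1.96 FPKM in DMSO, and passed the filter only through DMSO. The semaphorin receptor PLXNB2 fell to 18.8 ± 0.659 FPKM, against 49.0 ± 3.21 FPKM, and POLH, the polymerase that copies past ultraviolet lesions, to 2.93 ± 0.186 FPKM, against 6.70 ± 0.846 FPKM. DDB2 and XPC, which act on the same kind of lesion, were lower too. Of their 8 listed partners 5 were higher (62.5%) and 1 lower (12.5%), beside 36.9% and 41.0% of all tested genes.

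**Figure D5:**
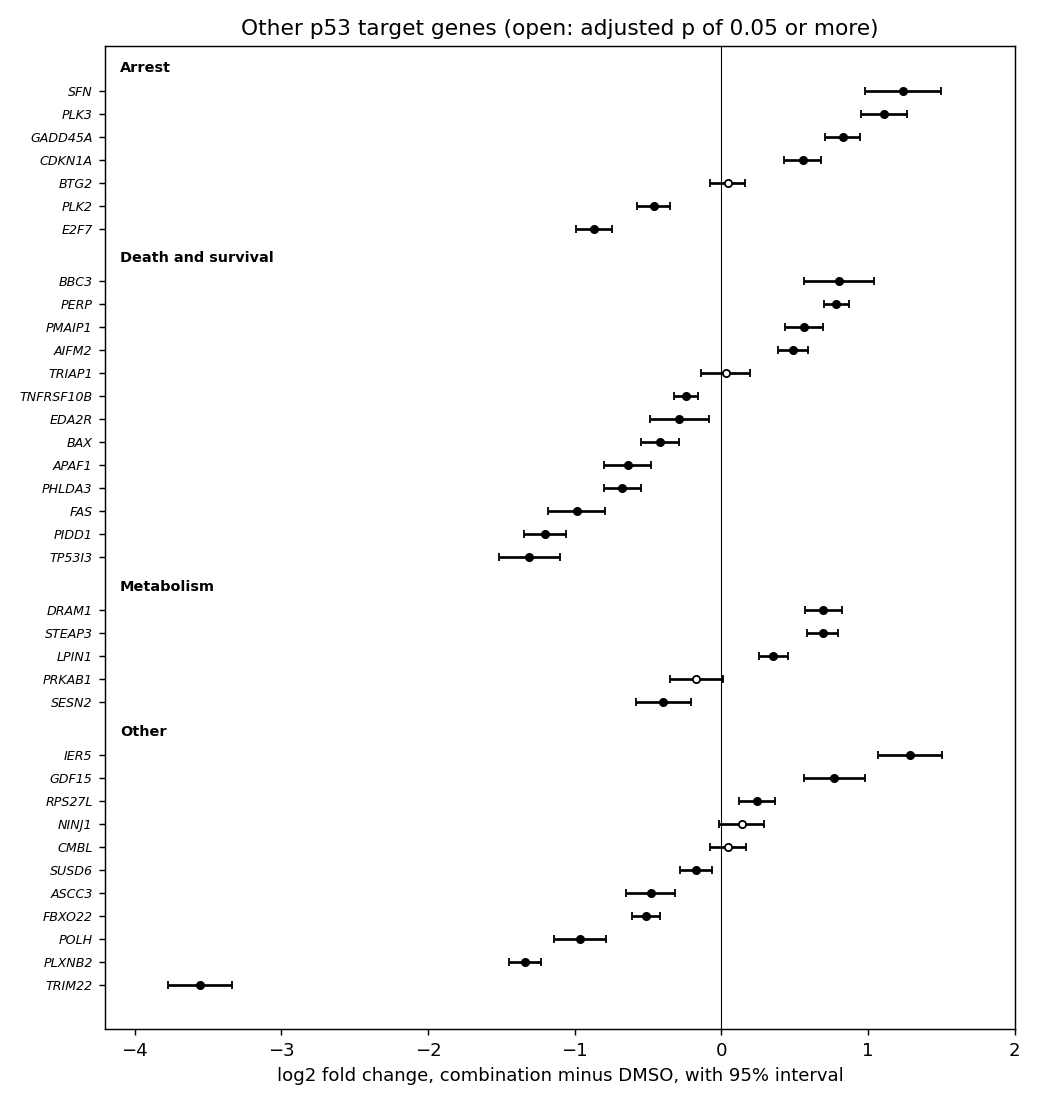
Log2 fold change, combination minus DMSO, with 95% interval (x axis) for 36 further p53 targets by role, with filled points for called genes and open points for genes not called. Each role holds genes on both sides of 0, and TRIM22 lies furthest left.

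Genes that control the stability or activity of p53 were mostly lower. Of 17 listed 15 were tested, and 12 were lower (80%) and 2 higher (13.3%), beside 41.0% lower and 36.9% higher over all tested genes. Their median change was -0.37 on the log2 scale. The checkpoint kinases fell most, CHEK1 to 1.05 ± 0.115 FPKM after the combination, against 5.63 ± 0.530 FPKM in DMSO, and CHEK2 to 1.61 ± 0.337 FPKM, against 6.48 ± 0.200 FPKM. CREBBP, an acetyltransferase that modifies p53, fell to 2.62 ± 0.115 FPKM, against 6.93 ± 0.276 FPKM. The higher calls were for RCHY1, another ubiquitin ligase of p53 (log2 fold change 0.23), and USP7, the deubiquitinase of MDM2 and p53 (0.10). Both were lost with library totals and when any of several single samples was left out.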

How the data were processed

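The authors deposited 1 table of FPKM values for 58735 genes in 8 samples, as its headers name them (per the file headers). Bowtie 0.12.2 is named by the submitters' processing notes, with GRCh37 and mm8 as builds and no roles stated. No source used here names the counting tool. All 58735 gene coordinates and lengths in the table equal those of GENCODE 29 (GRCh38), so coordinates printed are GRCh38. FPKM times gene length gave whole reads for 100% of values above 0 (within 0.02 reads, and in proportion above 1000 reads), and the number of reads that the authors divided by was 0.954 to 1.00 times the total in combination samples and 1.03 to 1.04 times in DMSO. For a 1 kb gene, 3 reads equal 0.173 to 0.197 FPKM, a floor that covers counting error only.

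Groups came from sample titles. The test was limma 3.58.1 (R 4.3.3) with mean-variance trend on log2(FPKM + 1), group as the only term, as planned for values that are not counts. Same-numbered samples did not deviate together, which does not show that the samples were unpaired. The fit was also run on simulated reads in which far fewer genes changed than here, which does not check the scaling. The 9 genes and all lists were chosen with earlier results of these data known. Named are the 9 genes, the tested partners (a partner and a marker are not reported here), and from each other list up to 3 called genes per direction with the largest change. MDM4, CDKN1A, LSM3 and the ratios were chosen after values were seen. Exact permutation tests used scipy 1.17.1. Promoters came from RefSeq (GRCh38.p14). Alternatives were pseudocounts of 0.1 and 5, filters, scalings, voom on whole reads, the replicate block and leaving out each sample.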

Additional observations from a re-analysis of the deposited data

Results flagged for a closer look

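In 3 named genes a single sample stood apart from the other samples of its group, and chance gives such a gap in about 1 of 20 groups. They were BBC3 in combination replicate 3 (5.11 FPKM), CREBBP in DMSO replicate 4 (7.34 FPKM) and RRM2 in DMSO replicate 2 (36.2 FPKM). None of the 9 p53 targets had such a sample.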

How the results depend on the processing

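The 7 lower calls among the 9 p53 targets were 7 under every alternative except a minimum of 5 FPKM (5, fewer genes tested) and leaving out combination replicate 4 (8). The single higher call, TP53INP1, became 0 without the filter, with a minimum of 5 FPKM, library totals, voom or the replicate block, and was 0 to 1 when single samples were left out. Over all genes, no filter gave 7747 higher genes, and a minimum of 5 FPKM gave 2821 higher and 3277 lower. That minimum left 10 lower genes among further targets and 10 among regulators and partners, where library totals gave 6 higher. The median log2 fold change of the targets ranged from -0.83 (voom) to -0.39 (pseudocount 5). Of 67 listed genes called, 60 kept the call in all alternatives run, 7 lost it in at least 1 and 0 changed sign. Of 9 listed genes that were tested but not called, 8 gained a call in at least 1 alternative. Same-numbered samples did not deviate together (correlations -0.0234 to 0.0672), and the replicate block gave 4839 higher and 5404 lower genes. Depth limits SESN1, with 34 reads in its lowest sample.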
